A study of Enchytraeus crypticus with 54 samples.

Results

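Adults of *Enchytraeus crypticus* were kept for 3 days in field-contaminated copper soil at its EC20 (Cu-Field EC20, 3 arrays) and compared with adults kept for 3 days in soil from the control area of the same site (Control, 3 arrays). These 6 arrays were chosen by the sample titles from the 54 arrays of a study with 18 groups of 3. EC20 and EC50 are the concentrations that lower reproduction by 20% and by 50%. Every group of the study consisted of adults with a well developed clitellum in natural soil from the Hygum site in Denmark, without food, and the groups differed in the copper form (field-aged, nanowires, nanoparticles or nitrate), the effect level and the day (3 or 7). Each array held RNA from the whole bodies of 1 pool of 20 adults, and the pools were biological replicates. The copper of Cu-Field had aged in the soil at the site and the control soil came from another area of it, so the copper and any other difference between the 2 soils cannot be told apart.

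*E. crypticus* is a small white worm of the soil litter, used in standard toxicity tests because it breeds quickly and lives in close contact with the pore water. Copper is an essential metal that animals bind, store and export through dedicated proteins, and it becomes toxic when these systems are exceeded, through redox reactions and through displacement of other metals from proteins. Old field contamination generally holds copper in forms that are less freely dissolved than a freshly added salt. The arrays carried 43750 non-control probes, each with 1 spot and with the name of a contig or of a single sequence read of the array design. The sources used here pair no probe with a gene name, so that no marker of a tissue or of copper handling could be looked up, and the results are given by probe. In whole-body extracts, fewer cells of a type and less RNA per cell cannot be told apart.

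Of these probes, 19499 (44.6%) passed the scanner software's test for a positive signal that differs from background on all 54 arrays and were tested. A level is given below as log2 of the processed signal minus the median of the array, so that 0 is the median probe of an array and 1 is a signal of double that median. A difference is the mean level of Cu-Field EC20 minus the mean level of Control. Probes are called at an adjusted p below 0.05 (limma, 1 mean per group over all 54 arrays, Benjamini-Hochberg adjustment).

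The raw signals already separated the 2 groups. The median signal of the tested probes was 123, 128 and 110 intensity units on the 3 Cu-Field EC20 arrays, against 57.6, 81.2 and 52.9 on the 3 Control arrays. All Cu-Field EC20 arrays were therefore brighter than all Control arrays, by 0.94 on the log2 scale on average, and the exact two-sided permutation test gave p = 0.1, the smallest value that 3 against 3 arrays allow. The spike-in RNA added to every sample behaved the other way. The mean log2 signal of 7 E1A spike-in probes was 13.07, 13.32 and 13.42 on the Cu-Field EC20 arrays, against 13.94, 13.87 and 13.89 on the Control arrays (difference -0.63, exact p = 0.1). The share of non-control probes well above background was 60.7%, 64.9% and 52.7% in Cu-Field EC20 and 43.8%, 58.7% and 40.3% in Control, where the groups overlapped (exact p = 0.2). Over the whole series the median signal of an array lay between 35.9 and 143 units.

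The signal was also spread differently among the probes. The 100 probes that were brightest on the 48 arrays outside this comparison took 27.7%, 27.3% and 28.3% of the summed signal in Cu-Field EC20, against 32.1%, 29.8% and 34.4% in Control. The groups did not overlap, and the difference of -4.34 percentage points was larger than the spread between replicates (SD 0.48 in Cu-Field EC20 and 2.3 in Control, exact p = 0.1). For the 500 brightest probes the shares were 54.8%, 54.6% and 56.5% in Cu-Field EC20 and 64.1%, 58.0% and 63.9% in Control, again without overlap. Relative to the array median, 58.6% of all 19499 probes had a negative difference, 2.63% were called lower and 1.52% higher in Cu-Field EC20. Of the 100 brightest probes, 93 had a negative difference, with a median of -0.48 and 13 calls, all of them lower in Cu-Field EC20. That median is 0.35 under SVCD, 0.20 under Quantile normalization, 0.45 without scaling and 1.08 relative to the spike-ins, and it stays negative under the 75th percentile (-0.51) and under SVCD started from centred signals (-0.35). SVCD normalization, developed in the study, aligns the groups on genes for which no variation between groups is detected.

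**Figure D1:**
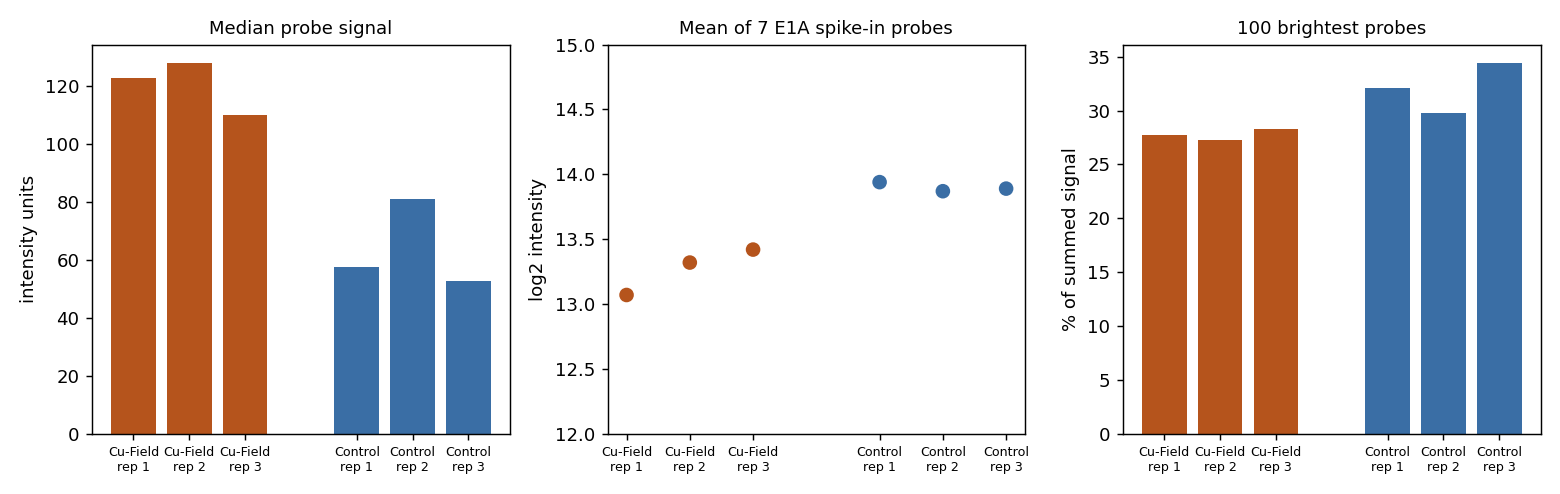
Median processed signal of the 19499 tested probes (intensity units), mean log2 signal of 7 E1A spike-in probes, and percentage of the summed signal in the 100 brightest probes, for each of the 3 Cu-Field EC20 arrays (orange) and 3 Control arrays (blue) at 3 days. The probe median reaches 110 only in the Cu-Field EC20 arrays, the spike-in signal is lower there, and the brightest probes take under 29% there against 29.8% to 34.4% in Control.

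After the median of each array was subtracted, Pearson correlations over the probes placed the arrays as follows. Replicates 1 and 2 of Cu-Field EC20 correlated with each other at 0.974, and the Control arrays with each other at 0.965 to 0.977. Replicate 1 of Cu-Field EC20 correlated with the Control arrays at 0.904 to 0.936 and replicate 2 at 0.929 to 0.962. Replicate 3 of Cu-Field EC20 correlated with the Control arrays at 0.957 to 0.968 and with Cu-Field EC20 replicates 1 and 2 at 0.949 and 0.970. It thus correlated less with replicate 1 of its own group than with any Control array, and results are also given without it. The median SD of a probe between replicates was 0.35 in Cu-Field EC20 and 0.31 in Control. The 3 Cu-Field EC20 arrays and Control replicate 3 were scanned on one day and the other 2 Control arrays on another, and no slide held arrays of both groups.

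At 3 days, 809 probes (4.15% of those tested) were called between Cu-Field EC20 and Control. Of these, 297 were higher (1.52% of those tested) and 512 were lower (2.63%) in Cu-Field EC20. At an unadjusted p below 0.05 the numbers were 1523 higher and 2961 lower. The sizes that follow are those of probes that passed the threshold. The 297 higher probes had a median difference of 1.33, a 2.51-fold change, with quartiles of 1.05 and 1.65 and a median standard error of 0.33. The 512 lower probes had a median difference of 1.46 downwards, a 2.76-fold change, with quartiles of 1.13 and 1.81 and a median standard error of 0.39. Only 16 called probes passed a difference of 3 on the log2 scale, of which 15 were lower and 1 was higher.

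In 2134 probes (10.9%) every Cu-Field EC20 value lay above every Control value, and in 4103 probes (21.0%) every value lay below. Among the called probes, 295 of the 297 higher and 506 of the 512 lower ones were separated in this way. Most of the separated probes had differences too small, or spreads too wide, to be called. Over all 19499 probes the difference had a median of -0.13, quartiles of -0.55 and 0.29, and a range of -2.18 to 1.77 between its 1st and 99th percentiles. A difference above 1 was seen in 1176 probes and one below -1 in 1905.

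**Figure D2:**
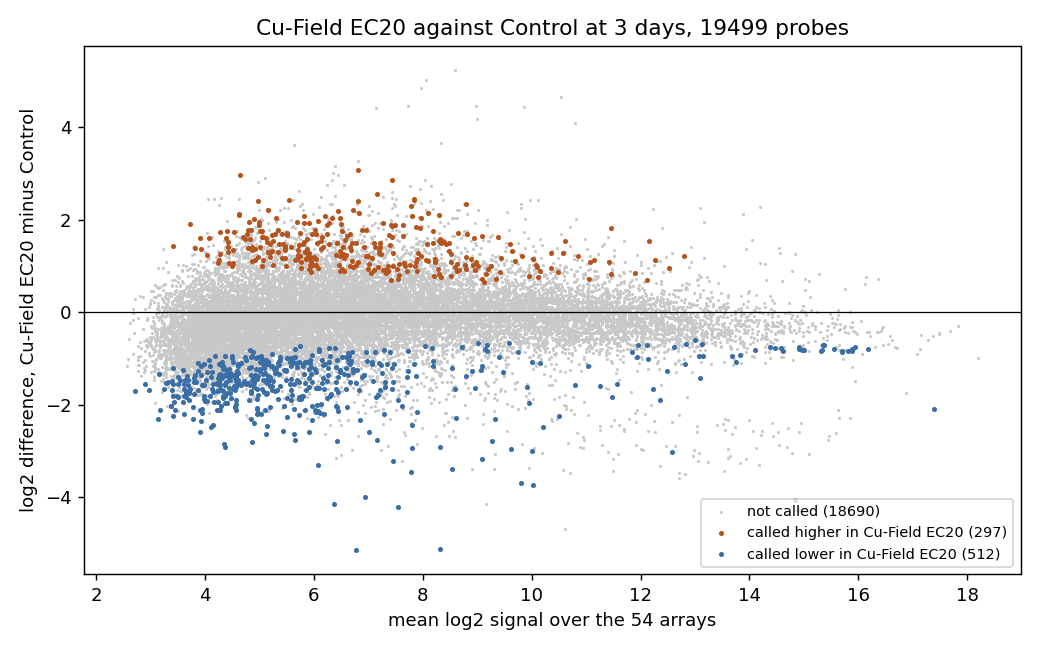
Log2 difference of Cu-Field EC20 minus Control at 3 days (vertical axis) against the mean log2 signal over the 54 arrays (horizontal axis), 1 point per probe. The 297 probes called higher (orange) and the 512 called lower (blue) lie on both sides of 0, the lower ones reach -5.15 and the higher ones 3.08.

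The balance of the calls changed with the abundance of the transcript. The probes were divided into quartiles of their mean log2 signal over the 54 arrays. In the dimmest quartile 35 probes were higher and 182 lower, with a median difference of -0.41 over the whole quartile. In the second quartile 94 were higher and 176 lower, and the median difference was -0.08. In the third quartile the balance turned, with 119 higher and 79 lower and a median of 0.05. In the brightest quartile 49 were higher and 75 lower, with a median of -0.11. The share of probes called was 4.45%, 5.54%, 4.06% and 2.54% from the dimmest to the brightest quartile, against 4.15% of all probes. Within the brightest quartile, the 500 brightest probes held 27 lower calls and no higher call, where 2.63% of all probes were called lower and 1.52% higher. The dimmest quartile is nearest to the background, and its median difference lies between -0.44 under the 75th percentile and 1.16 relative to the spike-ins.

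Some of the called probes were close to the background. Of the 297 higher probes, 199 were well above background on all 6 arrays, 98 on only some of them, and 7 of these 98 on none of the Control arrays. Of the 512 lower probes, 449 were well above background on all 6 arrays, 63 on only some of them, and 1 of these 63 on none of the Cu-Field EC20 arrays. With a normexp background correction in place of the processed signal, 268 probes were called, of which 243 were among the 809. The kind of sequence behind the probe made little difference to the share called. Among 9143 probes designed on contigs 3.97% were called, and among 10356 designed on single reads 4.31%. The calls on contigs comprised 106 higher and 257 lower probes, and those on reads 191 higher and 255 lower.

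The direction of the bulk of the transcriptome, and with it the number and balance of the calls, depended on how the arrays were brought to a common level. Subtracting the 75th percentile gave 270 higher and 583 lower probes, Quantile normalization 429 and 463, and SVCD started from centred signals 482 and 414. Under these 3 scalings the median difference of all probes was -0.16, 0.00 and 0.01. With SVCD on the unshifted signals the median difference was 0.70 and the calls were 8040 higher and 83 lower. Both SVCD runs used the same signals, apart from the median subtracted from each array beforehand, so the level that SVCD reached depended on its starting point. They are counted below as separate scalings. Without scaling the median was 0.81, with 4979 higher and 54 lower, and relative to the spike-ins it was 1.44, with 9512 higher and 19 lower. Of the 297 probes called higher, 267 were called higher under all 7 scalings. Of the 512 called lower, 355 were called lower under the 4 scalings that centred the arrays and 18 under all 7. Under none of the 7 scalings was a probe of either set called in the opposite direction. The 297 higher probes had a median difference between 1.30 and 2.90 over the 7 scalings. Their smallest difference with the array median was 0.65. The other scalings moved the median of all probes up, or down only to -0.16, so this set could hardly fall below Control. The median of the 512 lower probes lay between -1.49 and 0.10, and 309 of them were above Control relative to the spike-ins. Which level of the whole transcriptome is the right one was not tested.

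**Figure D3:**
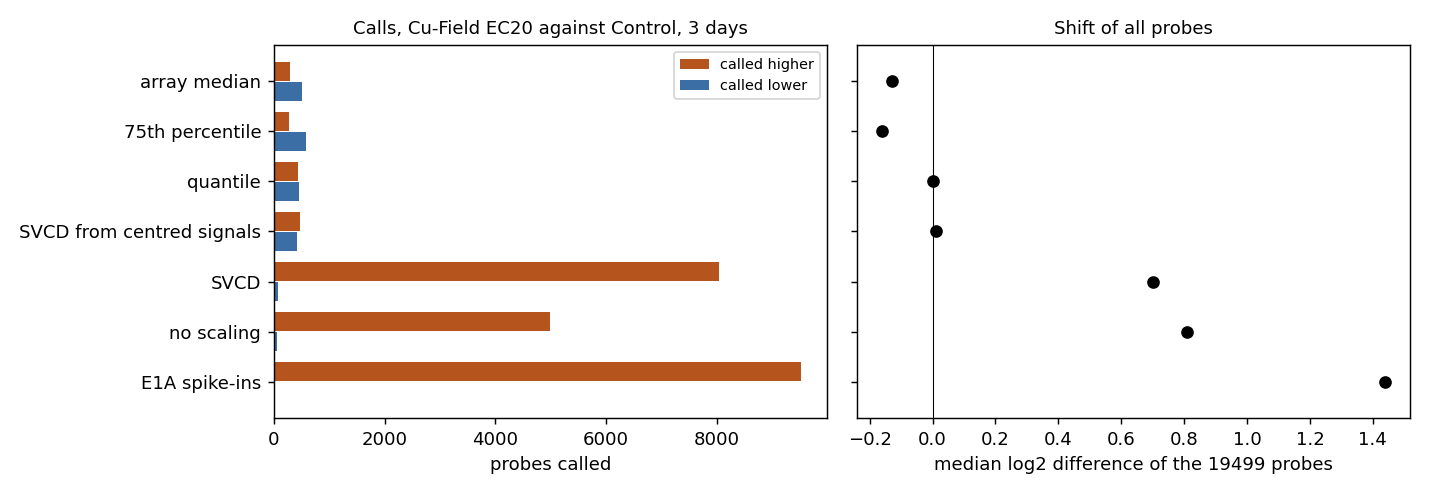
Left, number of probes called higher (orange) and lower (blue) in Cu-Field EC20 against Control at 3 days under 7 scalings of the same signals. Right, the median log2 difference of the 19499 probes under each, which runs from -0.16 with the 75th percentile to 1.44 with the E1A spike-ins, and the calls are nearly all higher where it is 0.70 or above.

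The number of calls also rested on single arrays. Without Cu-Field EC20 replicate 3, the array of its group nearest to Control, 473 probes were called (211 higher and 262 lower), of which 416 were among the 809. Without Cu-Field EC20 replicate 1, which lay farthest from Control, 32 were called, all of them among the 809. Without Cu-Field EC20 replicate 2 the number was 297. Without Control replicate 1 it was 115, without Control replicate 2 it was 692 and without Control replicate 3 it was 48. In all 6 of these fits, 14 of the higher and 12 of the lower probes were called. Control replicate 2 was the Control array nearest to Cu-Field EC20. Among the higher probes, the Cu-Field EC20 value nearest to Control was that of replicate 3 in 147, of replicate 2 in 133 and of replicate 1 in 17. Among the lower probes the numbers were 249, 162 and 101.

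Slide and scan day were entered as blocks. With the scan day in the model 835 probes were called (288 higher and 547 lower), and 687 of them were among the 809. Against Control replicate 3 alone, which shared the scan day of the Cu-Field EC20 arrays, the median difference was 1.40 for the higher probes and -1.56 for the lower probes, compared with 1.27 and -1.37 against the 2 Control arrays of the other day. The probes had been called with Control replicate 3 among the Control arrays, which favours the same direction against it. With slide as a random block 886 probes were called. With slide as a fixed block, where the groups are linked only through slides shared with other treatments, 11 were called (6 higher and 5 lower) and 10 of these were among the 809.

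Beyond these counts, 4 probes were selected by their difference, the 2 highest and the 2 lowest among the called probes whose 6 values did not overlap. Their levels are described in turn.

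The highest difference belonged to probe CUST_49709_PI427420766_b, designed on a single read (GYUW2K402GMYHQ). Its level was 2.12, 1.87 and 1.90 on the Cu-Field EC20 arrays, against -1.28, -0.85 and -1.22 on the Control arrays. The 3 pools of each group lay close together and the groups were far apart, with a difference of 3.08 ± 0.38 (standard error), an 8.47-fold change (limma adjusted p = 1.5e-05). It averaged 1.93 ± 0.08 in Cu-Field EC50 at 3 days (SD, n = 3), while the nanoparticle and nitrate groups of that day had means between -1.20 and -0.79, near Control. Cu-NWires EC20 averaged -0.17 ± 0.28, and Cu-NWires EC50 0.75 ± 1.21 with 1 array at 2.14. At 7 days the order turned round. Cu-Field EC20 was then at -0.59, -0.36 and 0.18, against 1.99, 1.60 and 1.37 in Control. The effect at 7 days was lower than that at 3 days by 5.0 ± 0.54 on the log2 scale (limma adjusted p = 2.1e-07). The choice of the probe by its difference at 3 days favours that direction. Cu-Field EC50, Cu-NWires EC20 and Cu-NWires EC50 were also low at 7 days, with means of -0.60, -0.34 and -0.09. The nitrate and nanoparticle groups of 7 days had means between 0.98 and 1.69. Of the 18 groups, Cu-Field EC20 at 3 days had the highest mean (1.96, close to the 1.93 of Cu-Field EC50) and Control at 3 days ranked 17. The choice of the probe on these 2 groups favours such ranks.

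The second, CUST_8648_PI427420766_b (contig21490), was a dim probe. Its level was 0.07, -0.71 and -1.24 in Cu-Field EC20, against -4.33, -3.26 and -3.18 in Control. The groups were clearly separate, with a difference of 2.96 ± 0.56 (limma adjusted p = 0.0038), and it was well above background on 3 of 3 Cu-Field EC20 arrays and on 1 of 3 Control arrays. With the Control values raised to the lowest signal well above background on their array, the fold was 4.0, against 7.78 as measured. With a normexp background correction the difference was 0.57 and not called (adjusted p = 0.12). Without Cu-Field EC20 replicate 1 it was 2.61, also not called (adjusted p = 0.07), and with slide as a fixed block 2.78 (adjusted p = 0.15). Cu-Field EC50 at 3 days averaged -0.43 ± 1.15. The nanowire groups of that day averaged -1.88 at EC20 and -1.91 at EC50, against -3.59 in Control. Cu-Field EC20 was not called against Cu-NWires EC20 (1.25 ± 0.56, limma adjusted p = 0.57). At 7 days the probe was at -1.95, -1.42 and -1.80 in Cu-Field EC20, against -0.33, -0.23 and -1.05 in Control, so here too the sign of the difference was opposite. The effect was lower than at 3 days by 4.15 ± 0.80 (limma adjusted p = 0.0048), a direction that the choice of the probe at 3 days favours. Every other treated group of 7 days also averaged below Control, from -0.71 in CuNO3 EC50 to -1.80 in Cu-NWires EC50.

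The lowest difference was that of CUST_56365_PI427420766_b, on a single read (GYUW2K402JBILH). It had levels of -3.65, -2.55 and 0.66 in Cu-Field EC20, against 3.96, 2.42 and 3.51 in Control. Replicate 3 was the highest of the Cu-Field EC20 arrays by more than 3 units, and still below every Control array. The difference was -5.15 ± 1.24, a 35.4-fold change (limma adjusted p = 0.019). It was lost when any of 4 arrays was left out, Cu-Field EC20 replicates 1 and 2 and Control replicates 1 and 3 (adjusted p 0.062 to 0.15), and with slide as a fixed block (-5.67, adjusted p = 0.15). At 3 days Cu-Field EC20 averaged -1.85 ± 2.24 and Cu-Field EC50 -1.46 ± 0.76 (SD, n = 3). This probe was highest in Control at 3 days of all 18 groups and lowest in Cu-Field EC20 at 3 days, which its choice on these 2 groups favours. At 7 days its values were 0.11, -0.60 and -2.78 in Cu-Field EC20 and 0.10, -1.65 and 1.12 in Control, the groups overlapped, and the change of the effect between days was not called (4.20 ± 1.75, limma adjusted p = 0.40).

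The fourth was CUST_16452_PI427420766_b (contig14534), with levels of -2.25, -2.51 and -0.65 in Cu-Field EC20, against 4.37, 1.84 and 3.74 in Control. Again replicate 3 of Cu-Field EC20 and replicate 2 of Control were the arrays nearest to the other group. The difference was -5.12 ± 1.41, a 34.8-fold change (limma adjusted p = 0.033), and the call was lost on leaving out the same 4 arrays (adjusted p 0.097 to 0.15), with the scan day as a block (-4.69, adjusted p = 0.054), with slide as a fixed block (-4.38, adjusted p = 0.22), without a filter on dim probes (-4.82, adjusted p = 0.068) and with normexp (-3.53, adjusted p = 0.058). Its highest levels were in the nitrate groups at 3 days, with 5.09 ± 0.30 at EC20 and 5.10 ± 0.27 at EC50. In Cu-Field EC20 at 7 days it was at 3.23, 2.37 and -2.01, and in Control at 0.11, 0.30 and 0.37, and the effects of the 2 days did not differ by the test (6.06 ± 1.99, limma adjusted p = 0.22).

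**Figure D4:**
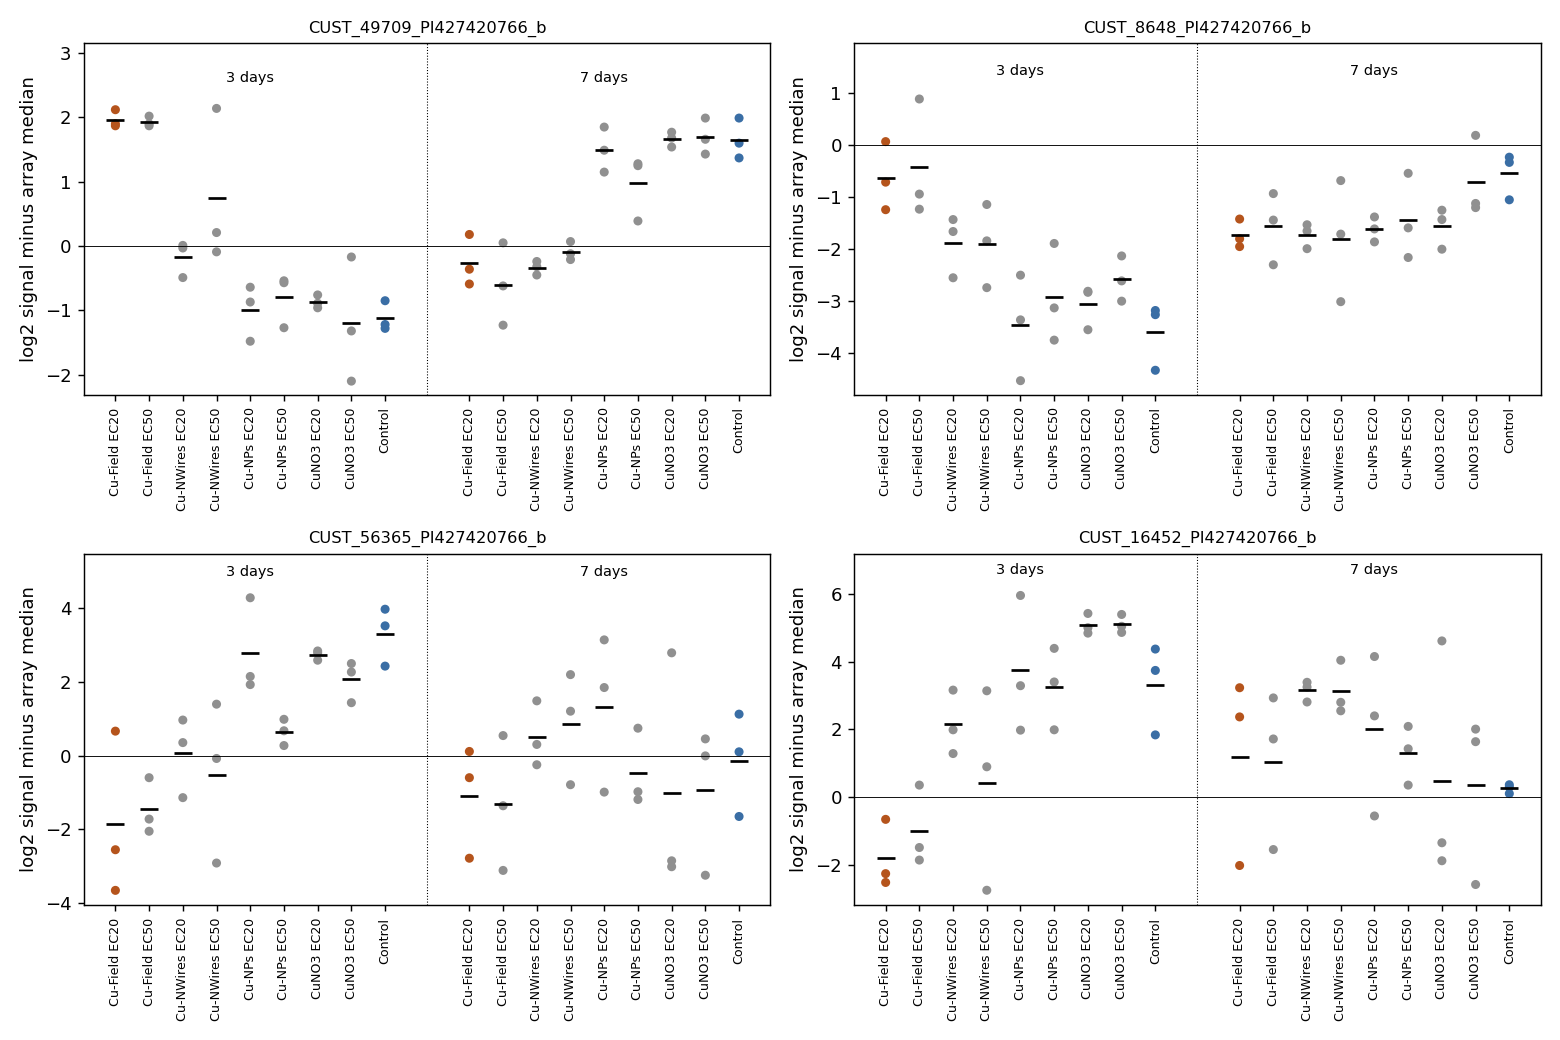
Log2 signal minus array median of the 4 probes in each of the 54 arrays, by group, at 3 days (left of the dotted line) and 7 days (right), with Cu-Field EC20 in orange, Control in blue and group means as black bars. The top row holds the 2 highest differences and the bottom row the 2 lowest, and in the top row Cu-Field EC20 is above Control at 3 days and below it at 7 days.

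The probes with the steepest fall, which include the last 2, shared their pattern. In the 15 called probes lower by more than 3, the median level was -0.48, -0.16 and 1.42 on Cu-Field EC20 replicates 1, 2 and 3, against 4.37, 3.17 and 3.81 on Control replicates 1, 2 and 3. Replicate 3 was the highest Cu-Field EC20 array in 11 of the 15 (in 249 of all 512 lower probes), and replicate 2 the lowest Control array in 14. Over all 512 lower probes, Control replicate 2 also had the lowest Control median, at -0.31 against -0.06 and 0.03 on replicates 1 and 3. In most of the 15 probes the same pools thus lay nearest to the other group. The median level of the 15 was 0.06 over the Cu-Field EC20 group, 1.27 in Cu-Field EC50, 1.56 in Cu-NWires EC20 and 3.52 in Control at 3 days. In Control at 7 days it was 0.37. The 27 called probes higher by more than 2 had medians of 1.48, 0.77 and 0.72 on the Cu-Field EC20 arrays and -1.28, -1.04 and -1.48 on the Control arrays, and here replicate 1 was the Cu-Field EC20 array farthest from Control.

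A higher effect level of field-contaminated soil gave no detectable further change. Between Cu-Field EC50 and Cu-Field EC20 at 3 days, 0 of 19499 probes were called by limma (0%), with a lowest adjusted p of 0.68 and 517 probes at an unadjusted p below 0.05. The unmoderated equal-variance test that the methods of the study give beside limma also called 0. That test called 0 for Cu-Field EC20 against Control too (its lowest adjusted p was 0.12), so it cannot decide the question here. The 95% interval of a difference reached 0.75 to either side at the median standard error. In the 297 higher probes Cu-Field EC50 was lower than Cu-Field EC20 by a median of 0.27, and in the 512 lower probes it was higher by a median of 0.38, a direction that the choice of the probes on Cu-Field EC20 favours. Against Control at 3 days, 214 probes (1.1%) were called for Cu-Field EC50, a comparison that shares its Control arrays with the one described here. Of the 3 Cu-Field EC50 arrays, 2 lay on a slide with Cu-Field EC20 arrays.

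Copper nanowires were compared with the field soil directly, at the same effect level and not at the same copper concentration. Against the shared Control arrays, 809 probes (4.15% of those tested) were called for Cu-Field EC20 and 2439 (12.5%) for Cu-NWires EC20. Cu-Field EC20 differed from Cu-NWires EC20 in 8 probes (0.041% of those tested), 7 of them higher and 1 lower in Cu-Field EC20. One of the 7 was CUST_49709_PI427420766_b, at 2.14 ± 0.38 above Cu-NWires EC20 (limma adjusted p = 0.0082). Of the 8 probes, 3 were also called against Control. The 8 calls were few enough to depend on single arrays, with 0 without Cu-Field EC20 replicate 1 and 1 without Cu-NWires EC20 replicate 1. At an unadjusted p below 0.05 there were 1563 probes, and the 95% interval of a difference again reached 0.75 to either side at the median standard error. The differences from the shared Control arrays, side by side, were a median of 1.33 in Cu-Field EC20, 1.03 in Cu-Field EC50, 1.04 in Cu-NWires EC20, 1.20 in Cu-NWires EC50, 0.38 and 0.78 in Cu-NPs EC20 and EC50, and 0.30 and 0.35 in CuNO3 EC20 and EC50 for the 297 higher probes. For the 512 lower probes the medians were -1.46 in Cu-Field EC20, -1.03 in Cu-Field EC50, -1.33 in Cu-NWires EC20, -1.20 in Cu-NWires EC50, -0.26 and -0.49 in Cu-NPs EC20 and EC50, and -0.20 and -0.18 in CuNO3 EC20 and EC50. All these values share the same 3 Control arrays, and the probes were chosen on Cu-Field EC20, which favours a larger difference there.

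The 7-day arrays gave no value to the 3-day difference, although they entered the detection filter and the estimate of the spread on which the calls rest (with only the 27 arrays of 3 days, 1331 probes were called, of which 735 were among the 809). In Cu-Field EC20 against Control at 7 days, the 297 probes that were higher at 3 days had a median difference of 0.01, with 150 of them above 0 (50.5%), compared with 43.7% of all probes. The 512 probes that were lower at 3 days had a median difference of -0.40, with 428 below 0 (83.6%), compared with 56.3% of all probes. The median over all probes was -0.06. Both values moved with Control replicate 3 of 7 days. Without it, a step added after these values were seen, the median was -0.12 for the lower probes, with 324 below 0 (63.3%, compared with 51.8% of all probes), and -0.19 for the higher probes, with 84 above 0 (28.3%, compared with 48.2% of all probes). Without replicate 1 or replicate 2 of that group, the medians were -0.48 and -0.60 for the lower probes and 0.09 and 0.07 for the higher probes. At 7 days 6 probes (0.0308%) were called in all. The median of the higher probes was 0.66 in Cu-Field EC20 and -0.77 in Control at 3 days, and 0.50 in Cu-Field EC20 and 0.51 in Control at 7 days. The median of the lower probes was -1.70 in Cu-Field EC20 and -0.14 in Control at 3 days, and -1.63 in Cu-Field EC20 and -1.17 in Control at 7 days. In both sets Cu-Field EC20 was nearly level between the days, and Control at 7 days lay nearer to Cu-Field EC20 than to Control at 3 days, a pattern that the choice of the probes on Control at 3 days favours. Control replicate 3 of 7 days was apart from the other 2, at 0.13 against 0.73 and 0.81 in the higher set and at -0.59 against -1.37 and -1.59 in the lower set.

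**Figure D5:**
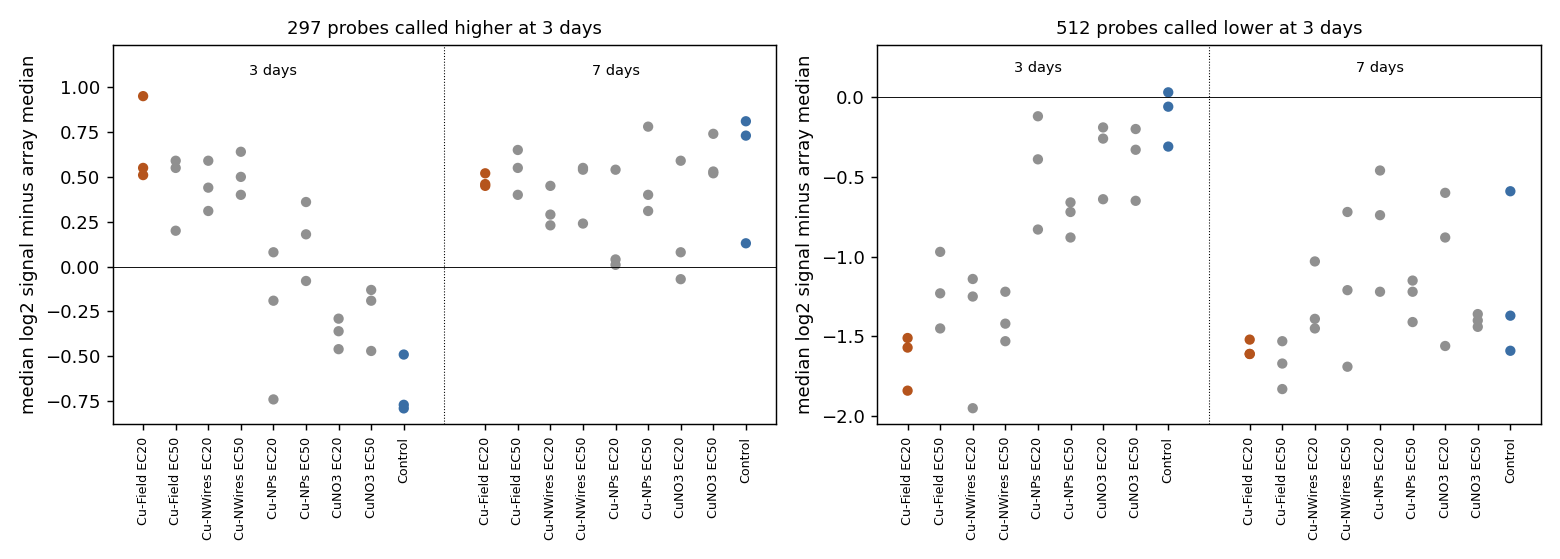
Median level (log2 signal minus array median) of the 297 probes called higher (left) and the 512 called lower (right) at 3 days, 1 point per array, by group, with Cu-Field EC20 in orange and Control in blue. At 3 days the group medians of Cu-Field EC20 and Control are the extremes (0.66 and -0.77 on the left, -1.70 and -0.14 on the right), which follows from the choice of the probes, and at 7 days the Control medians (0.51 and -1.17) lie among those of the treated groups.

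The change of the Cu-Field EC20 effect from 3 to 7 days was tested directly. It was called in 118 probes (0.605% of those tested), 109 with a lower and 9 with a higher effect at 7 days. All 109 had a positive difference at 3 days and a negative one at 7 days, with medians of 1.11 and -0.97, and 60 of them belonged to the 297 higher probes. Their median level was 0.82 in Cu-Field EC20 and -0.22 in Control at 3 days, and -0.13 in Cu-Field EC20 and 0.88 in Control at 7 days. These probes were chosen by the interaction in the same arrays, which favours opposite signs, and over all 19499 probes 17.5% were positive at 3 days and negative at 7 days. The 9 others all belonged to the 512 lower probes, with medians of -1.67 at 3 days and 0.94 at 7 days. The number of calls was 49 without Control replicate 3 at 3 days, 37 without Cu-Field EC20 replicate 1 at 3 days, 52 without Cu-Field EC20 replicate 2 at 7 days and 97 without Cu-Field EC20 replicate 3 at 3 days. All 3 Cu-Field EC20 arrays of 7 days were scanned on the day on which none of those of 3 days was, and 58 probes were called with the scan day in the model.

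Detection was also counted outside the tested probes. Of the 43750 non-control probes, 365 (0.834%) were flagged as positive and significant on all 3 Cu-Field EC20 arrays and on none of the 3 Control arrays, against 30 (0.0686%) with the opposite pattern. These probes were dim. The median processed signal of the 365 was 5.40 units in Cu-Field EC20 and 2.56 in Control, and only 8 exceeded the stricter limit for a signal well above background on each Cu-Field EC20 array. The numbers of probes flagged as positive and significant were 35951, 37844 and 32878 on the Cu-Field EC20 arrays and 30238, 36783 and 28417 on the Control arrays. The overall share flagged overlapped between the groups (mean 81.3% in Cu-Field EC20 and 72.7% in Control, exact two-sided permutation p = 0.3). The part of the array brightness in the 365 was not tested.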

How the data were processed

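Gene expression had been measured in 54 RNA samples with custom single-dye Agilent arrays. The processed signals deposited by the authors are intensity values on a linear scale. Per the file headers, Agilent Feature Extraction 10.7.3.1 had subtracted the background and detrended each array, with no scaling between arrays. The value table that the authors deposited repeats these intensity values in rounded form (ratio 0.995 to 1.005), and 0 columns came from outside the series. Quality flags per spot, deposited in the same files, were used as filters.

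Probes whose signal was positive and significant by the software's flag on all 54 arrays were kept (19499 of 43750). Signals were transformed to log2, and the median of each array was subtracted. The model in limma 3.58.1 (R 4.3.3) had 1 mean per group over all 54 arrays, without a replicate block. Adjustment was by Benjamini-Hochberg within each comparison at a threshold of 0.05. The groups, the probe sets and the comparisons were chosen with earlier results of these data known. The 4 named probes were, of the called probes whose 6 values did not overlap, the 2 with the highest and the 2 with the lowest difference. The other sets were described by their counts and medians. The alternatives were SVCD (with the published functions), Quantile, 75th percentile, E1A spike-ins (7 of 10 probes, unsaturated and well above background on every array) and no normalization, the normexp correction (offset 50), other filters, fewer groups in the fit, blocks (statmod 1.5.0), the t-test that the methods give beside limma, and each array left out in turn. Normexp was run on the median spot signals, since the mean signals were not used here. Steps were tested on simulated data. Values at array level used exact two-sided permutation tests. The number of arrays limits the precision. Files were read with the package data.table (version 1.17.8), and figures were drawn with matplotlib 3.10.9. No sequence or gene name of a probe was used here.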

Additional observations from a re-analysis of the deposited data

Results flagged for a closer look

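The effect of Cu-Field EC20 relative to Control differed between the days in 118 probes by a test of the interaction (limma, adjusted p below 0.05), 109 of them with a lower effect at 7 days than at 3 days. Among the 4 named probes, the interaction was called in CUST_49709_PI427420766_b, at -5.0 ± 0.54 (adjusted p = 2.1e-07), and in CUST_8648_PI427420766_b, at -4.15 ± 0.80 (adjusted p = 0.0048). Both probes were chosen by their high difference at 3 days, which favours a lower effect at 7 days. The scan days of the arrays compared differed between the time points.

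In data outside the tested probes, 365 probes were flagged as positive and significant on all 3 Cu-Field EC20 arrays of 3 days and on none of the 3 Control arrays, against 30 with the opposite pattern. The Cu-Field EC20 arrays were the brighter ones.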

How the results depend on the processing

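The number of probes called for Cu-Field EC20 against Control, 809, stayed between 561 and 896 under 11 alternatives. The probes themselves were not always the same. With only the 2 groups in the fit, 338 of the 561 probes called were among the 809. The number moved to 8123 with SVCD, 9531 with the E1A spike-ins, 5033 without normalization, 268 with normexp, 498 without a filter, 1331 with only the 27 arrays of 3 days, 11 with slide as a fixed block and 0 with the methods' t-test, which called 4212 before adjustment. Leaving out 1 array gave 32 to 692. The percentage of calls that were higher was 36.7% (exact 95% binomial interval 33.4 to 40.1, counting error only). That interval treats the probes as independent and leaves out the spread between arrays. The percentage was 99 with SVCD, 53.8 with SVCD from centred signals, 48.1 with Quantile, 31.7 with the 75th percentile, 99.8 with the spike-ins, 98.9 without normalization, 45.1 with normexp, 45.3 with detection on the 6 arrays only, 48.6 without a filter, 31.7 with only the 2 groups, 32.5 with the arrays of 3 days, 54.5 with the slide block, and 38.6 to 62.5 with 1 array left out.

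The 0 calls between Cu-Field EC50 and Cu-Field EC20 held under all 25 alternatives, among them the t-test, which also called 0 for Cu-Field EC20 against Control. The 118 probes of the change between days became 613 with SVCD, 388 with SVCD from centred signals, 490 with the spike-ins, 182 without normalization, 70 with detection on the 12 arrays only, 39 without a filter, 29 with only the 4 groups, 4 with the slide block, 58 with the scan day block, and 37 to 97 with 1 array left out. The 8 probes against Cu-NWires EC20 became 0 with the spike-ins, without a filter, with only the 2 groups, with the arrays of 3 days, with the slide block and with the t-test, 3 without normalization, 17 with probes well above background on all arrays, and 0 to 9 with 1 array left out. The cause of these movements was not tested.

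Same-numbered arrays of the 2 groups deviated from their group means with correlations of -0.23, 0.29 and -0.02. No consistent pairing by replicate number was seen, and pairing was not tested. With the replicate block 759 probes were called between Cu-Field EC20 and Control, 97 for the change between days, 7 against Cu-NWires EC20 and 0 between effect levels. The differences of the 4 named probes kept their sign under every alternative that could be fitted, which their choice as extremes of the same arrays favours. The methods' t-test called none of the 4 (adjusted p 0.12 to 0.17). With slide as a fixed block 1 of the 4 was called, CUST_49709_PI427420766_b (3.38, adjusted p = 0.036). The dimmest probes, near the background, are the least certain.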
